A study of Mus musculus with 2 samples.

Results

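Genes of the cytosolic ribosomal proteins were read in 2 libraries of polyadenylated RNA from mouse heart cells. They were taken as the rows whose symbol starts with Rpl, Rplp or Rps and a number, plus Rpsa, without the 7 Rps6k kinase genes and Rps19bp1. This left 88 of 10992 rows: 46 large-subunit genes, 31 small-subunit genes, 4 paralogs (Rpl22l1, Rpl36al, Rpl7l1 and Rps27l) and 7 genes that the annotation names as copies of another member. Fau, which encodes a further protein of the small subunit as a fusion with a ubiquitin-like domain, lies outside the name rule and is given separately. The samples were labelled as cardiomyocytes from neonatal mouse heart. One received a negative control and the other an antagomir, an antisense oligonucleotide, against FERPIR (DQ69304), a piRNA, which is a short RNA bound by PIWI proteins. A treatment label of PBS was common to both. Strain, sex, day of harvest and the number of animals were not given in the labels, and there was 1 library per group.

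The ribosome's small subunit reads the mRNA and its large subunit joins amino acids, and each is built of ribosomal RNA and a fixed set of mostly small, basic proteins present in 1 copy each, apart from the P stalk. The genes are among the most highly expressed of a growing cell. Their mRNAs begin with a pyrimidine tract, the 5′ TOP, through which mTORC1 and LARP1 set their translation, and in the heart ribosome production accompanies growth of the muscle cells.

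Levels are FPKM, which scale fragments by transcript length and library size, so that levels of different genes can be set side by side. The log2 ratio is log2 of (antagomir FPKM + 1) over (control FPKM + 1). The read depth is not known and counting intervals cannot be computed, and with 1 library per group no difference has a replicate check or a test. Of 18 cardiomyocyte markers, 5 had a value (Tnnt2, Tnnc1, Tnni1, Myl4 and Nppb), summing to 14.6 FPKM (control) and 37.4 FPKM (antagomir), and none of these was at 0. Of these 5, 4 were higher in the antagomir library, while Nppb, the highest in the control, had 6.86 and 5.28 FPKM (log2 ratio -0.32). Myl4, Tnni1 and Tnnt2 were low in the control, at 0.85, 1.04 and 1.48 FPKM. Myh6, Myh7, Actc1, Actn2, Ttn and the other markers of the list were without a value in the table used here. Fibroblast markers, 6 of 10, summed to 548 and 341 FPKM, smooth muscle markers, 5 of 6, to 1372 and 948, most of it Acta2 (1304 and 845), leukocyte markers, 2 of 8, to 16.9 and 22.0, and erythroid markers, 2 of 6, to 14.4 and 20.8. Of the 5 smooth muscle markers 3 were higher in the antagomir library, with a median log2 ratio of 0.49, against the direction of their sum. The 8 endothelial markers had no value. The part of these other cells in the ribosomal protein levels was not tested, and in bulk RNA fewer cells of a type and less RNA per cell cannot be told apart.

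Start regions of 62 of the 88 genes were found in RefSeq (build GRCm38.p6). The windows below run from 40 bases before to 20 bases after the RefSeq start, 5′ to 3′ on the gene's strand, with runs of at least 6 C or T in capitals. They are shown because a pyrimidine tract at the 5′ end is the feature ribosomal protein mRNAs share. Runs were marked and counted at any position of the window. A run in capitals is thus not always that tract: in Rpl36a, for example, it lies before the start. The first group holds the 4 core genes with the highest log2 ratio among those with an entry, and the second the 4 with the lowest.
Rpl41, chr10:128549149-128549208, minus strand: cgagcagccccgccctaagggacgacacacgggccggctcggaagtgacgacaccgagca
Rpl36a, chrX:134585614-134585673, plus strand: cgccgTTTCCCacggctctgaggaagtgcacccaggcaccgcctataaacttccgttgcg
Rpl37a, chr1:72711220-72711279, plus strand: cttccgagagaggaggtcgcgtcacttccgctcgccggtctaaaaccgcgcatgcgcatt
Rpl38, chr11:114668540-114668599, plus strand: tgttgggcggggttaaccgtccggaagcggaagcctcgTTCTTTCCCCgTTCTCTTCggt
Rplp0, chr5:115559427-115559486, plus strand: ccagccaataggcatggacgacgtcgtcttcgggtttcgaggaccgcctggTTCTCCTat
Rpl28, chr7:4792925-4792984, plus strand: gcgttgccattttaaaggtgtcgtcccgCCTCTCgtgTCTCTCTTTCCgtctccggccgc
Rpl4, chr9:64173347-64173406, plus strand: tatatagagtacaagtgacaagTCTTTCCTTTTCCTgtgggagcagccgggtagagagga
Rpl9, chr5:65391412-65391471, minus strand: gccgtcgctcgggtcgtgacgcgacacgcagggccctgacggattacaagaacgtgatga
A run of at least 6 pyrimidines on the gene's strand was present in 52 of 67 windows of the core genes (77.6%, from 57 genes, some with several starts), against 51.2% of 32851 windows of all genes. The share was similar in core genes at least 1.5-fold higher in the antagomir library (22 of 29 windows, 75.9%) and in the other core genes (30 of 38, 78.9%). In the printed windows Rpl38, at the high end, has a longest run of 10 bases and Rpl41 one of 4, while at the low end Rpl4 has 14 and Rpl9 has 4. The word CCGGAAG, which holds the GGAA core that ETS factors bind, was searched on both strands of the 300-base start regions and lay in 25 of the 67 core regions (37.3%), against 8.86% of all regions. It was present in 37.9% of the regions of the 1.5-fold higher core genes and 36.8% of the others. TATAA in the last 50 bases before the start was found in 5.97% of core windows and 4.93% of all. These words describe the windows and are not measured binding sites.

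Ribosomal protein genes were as a group higher in the antagomir library. Their summed level was 36792 FPKM (control) and 52867 FPKM (antagomir), a ratio of 1.44, while all other genes summed to 258611 and 259939 FPKM. Their share of all FPKM was 12.5% and 16.9%. Of the 88 genes, 78 had a log2 ratio above 0, against 46% of the 10201 genes that reached 1 FPKM. At least 1.5-fold higher were 36 of 88, where the background over all genes was 10.8%. At least 2-fold higher were 11, with a background of 2.88%, and at least 1.5-fold lower were 2, among them the copy Rps27rt, with a background of 13.4%. The median log2 ratio was 0.53, with an SD across genes of 0.46 and a highest value of 1.99, and that of all genes was -0.05 (SD across genes 0.55). The difference was smaller once the library-wide relation of the ratio to transcript length was removed. The median was then between 0.07 and 0.24, depending on the length used, and that of all genes between -0.07 and -0.05. At least 1.5-fold higher were then 10 to 15 of the ribosomal protein genes. The share of all genes at this limit after removal is not given here, so these counts have no background. The values of the ribosomal protein genes cover 88 genes for the longest transcript and 86 for the principal transcript and coding length.

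The difference was spread over many genes but unequal. Of the net difference of 16075 FPKM, 10 genes made up 8249 FPKM, or 51.3%. Rplp1 was 1470 FPKM higher, Rpl41 1223, Rpl38 1054 and Rpl23a 875, followed by Rpl36, Rpl37a, Rpl8, Rpl19, Rps29 and Rpl32. Of the 20 genes with the highest FPKM, 6 encoded ribosomal proteins in the control library and 11 did in the antagomir library, and among the highest 100 genes these were 32 and 44. The order of the core genes changed little between the libraries: levels on the log2 scale were related with Pearson's r 0.95 and Spearman's rho 0.93 over 77 genes, which share both libraries. Over 10113 genes outside the members these were 0.95 and 0.94, so the stable order is not particular to the ribosomal protein genes.

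**Figure D1:**
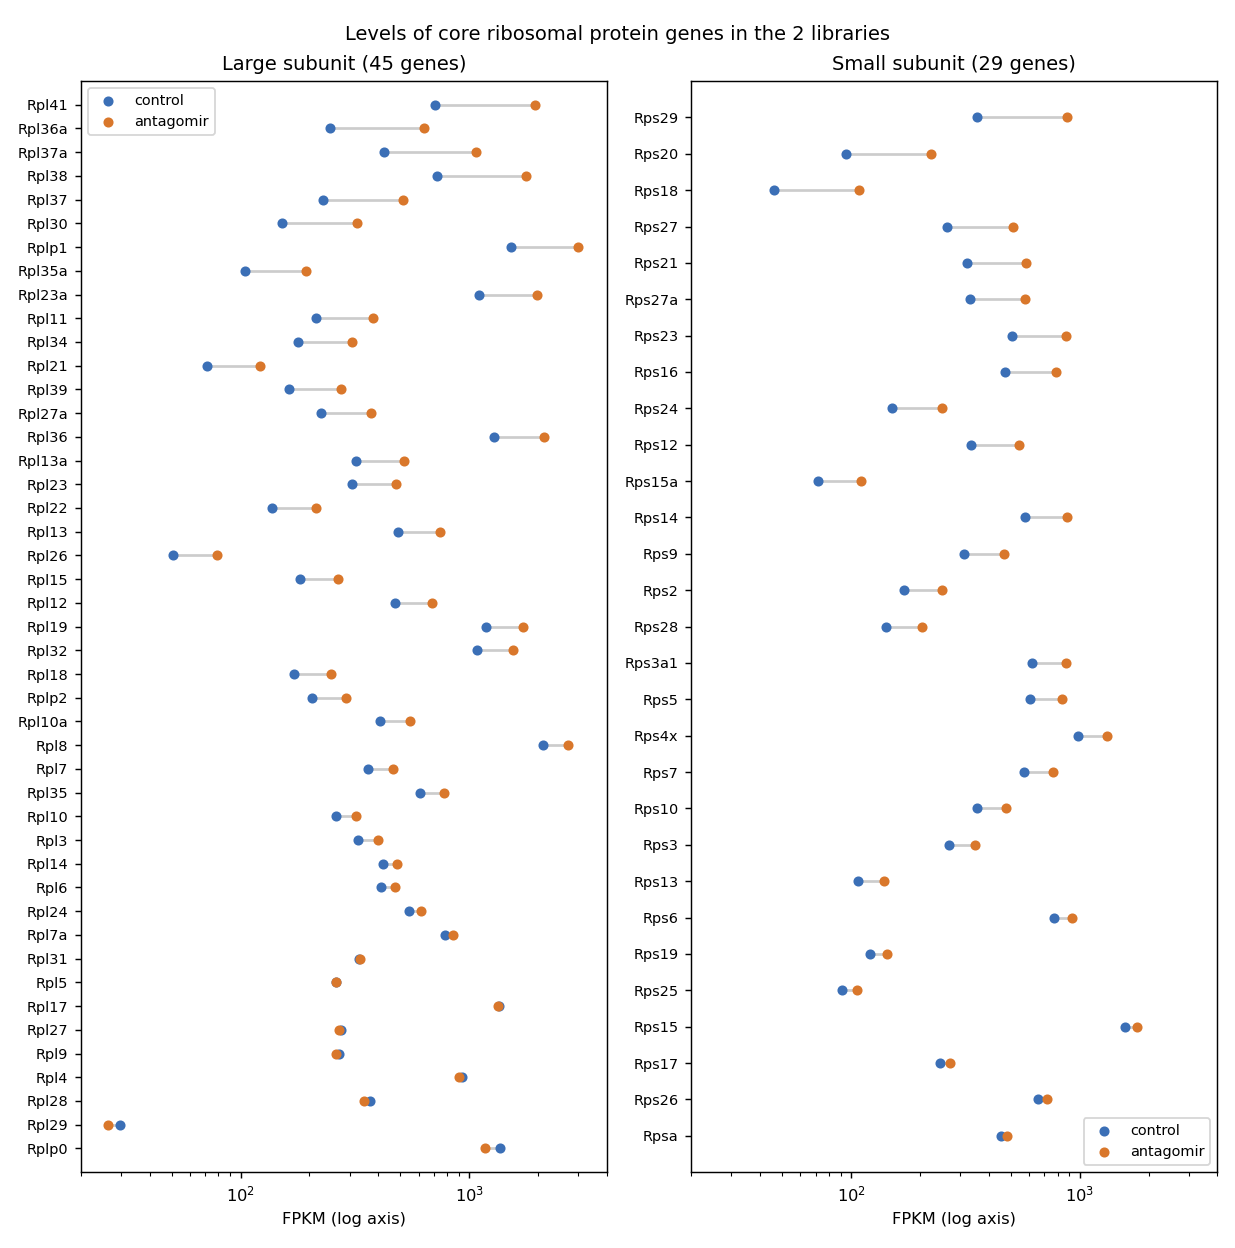
FPKM of 45 large-subunit and 29 small-subunit core genes (log axis) in the control library (blue) and the antagomir library (orange), 1 library each, ordered by log2 ratio. The antagomir value lies to the right for 67 of these 74 genes, by most at the top of both panels, and to the left for 7 large-subunit genes.

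Levels per length differed widely among the core genes. In the control the highest, Rpl8, exceeded the lowest, Rpl29, 70.5-fold. Rpl8, which lies near the site of peptide bond formation, had 2091 FPKM against 2701 in the antagomir library. Rps15, a protein of the decoding region, had 1572 and 1786 FPKM, and Rpl36 had 1283 and 2124. At the other end Rpl29 had 29.7 and 26.3 FPKM and Rps18, a protein of the small subunit's head, 45.9 and 108. In both libraries 70 of the 77 core genes were above 100 FPKM. Many of these genes have processed copies in the genome (59 of the 77 have at least 1 named copy, 297 in all), and how the authors assigned reads shared with such copies is not given in the sources used here.

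The subunits are set side by side here, with no test of their difference. Of the 46 large-subunit genes, 39 were higher in the antagomir library, 20 at least 1.5-fold and 6 at least 2-fold, with none at least 1.5-fold lower and a median log2 ratio of 0.53. Of the 31 small-subunit genes, 30 were higher, 12 at least 1.5-fold and 3 at least 2-fold, with 1 at least 1.5-fold lower and a median of 0.49. Large-subunit genes summed to 23614 FPKM (control) and 34664 FPKM (antagomir), and small-subunit genes to 12466 and 17203, which are ratios of 1.47 and 1.38. With the named copies included, the medians of the subunits differed by 0.04, and by -0.02 to 0.00 after removal of the trend over transcript length. The SD across genes was 0.43 (large) and 0.39 (small), which describes single genes and is no error of the medians.

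**Figure D2:**
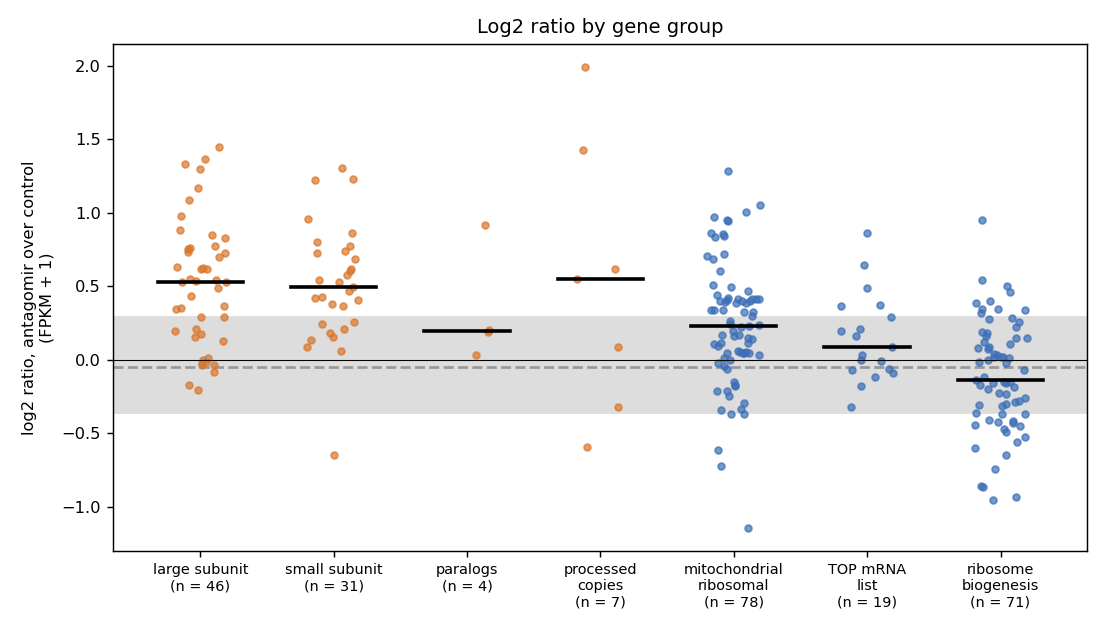
Log2 ratio (antagomir over control, FPKM + 1) of each gene (points) with the group median (black bars) for the ribosomal protein genes (orange) and 3 comparison lists (blue), with the number of genes under each group. The grey band is the middle 50% of all genes and the dashed line their median (-0.05), and the medians of both subunits (0.53 and 0.49) lie above that band while those of the paralogs, the mitochondrial ribosomal proteins, the TOP list and the biogenesis list lie within it.

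The proteins of the P stalk, which recruits the GTPase factors of translation, had unlike ratios. Rplp1 had 1514 FPKM (control) and 2984 FPKM (antagomir; log2 ratio 0.98) and was the fourth highest gene of the latter. Its partner Rplp2 had 205 and 288 FPKM (0.49). Rplp0, the base to which both bind (chr5:115559467-115563727, plus strand, GRCm38), had 1356 and 1174 FPKM (-0.21), the lowest ratio of the large subunit. The Rplp1 level was thus near that of Rplp0 in the control and well above it in the antagomir library.

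Rpl5 and Rpl11 bind the 5S ribosomal RNA together, and the free complex binds MDM2, the ubiquitin ligase of p53. Rpl5 had 261 FPKM (control) and 262 FPKM (antagomir; log2 ratio 0.00). Rpl11 had 213 and 379 FPKM (0.83). The partners had unlike ratios in these libraries, and an exon of Rpl5 overlaps Snord21 and Fam69a in the annotation.

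Of 8 proteins that line the tunnel of the nascent peptide or surround its exit, 6 were higher and 3 at least 1.5-fold higher in the antagomir library. Among all 88 members these were 78 and 36, and over all genes 46% and 10.8%. The group's median of 0.44 was below the 0.53 of all members, so these counts do not set it apart. Rpl23a, where the signal recognition particle and chaperones dock, had 1097 and 1972 FPKM (0.85). Rpl39, a short protein inside the tunnel, had 163 and 274 FPKM (0.75), and Rpl26, at the exit, had 50.8 and 78.6 (0.62). Rpl4 and Rpl17, which form the tunnel's narrowest point, had 925 and 904 FPKM (-0.03) and 1345 and 1332 FPKM (-0.01). The exit proteins Rpl19 (0.53), Rpl35 (0.34) and Rpl31 (0.01) lay between.

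The zinc-binding proteins had the highest median of the structural groups listed, 1.17 over 7 genes, of which 7 were higher, 6 at least 1.5-fold and 4 at least 2-fold. Among all 88 members these counts were 78, 36 and 11, and over all genes the shares were 46%, 10.8% and 2.88%. Rpl36a had 245 FPKM (control) and 631 FPKM (antagomir; log2 ratio 1.36), Rpl37a had 423 and 1068 (1.33), and Rpl37 had 228 and 515 (1.17). All 3 belong to the large subunit. In the small subunit Rps29 had 355 and 879 FPKM (1.30), Rps27 had 263 and 510 (0.96), and Rps27a, made as a fusion with ubiquitin, had 332 and 578 (0.80). Rps26, at the mRNA exit, was the exception with 657 and 720 FPKM (0.13). After removal of the length trend the median of the group was between 0.58 and 0.60. The other core genes at least 2-fold higher were Rpl41, Rpl38, Rps20, Rps18 and Rpl30.

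Rpl41 encodes the shortest protein of the ribosome, with 75 coding nucleotides, and lies at chr10:128548114-128549305 (minus strand, GRCm38). It had 708 FPKM (control) and 1931 FPKM (antagomir), the highest ratio of the core genes (1.45). Rpl38, known for its role in the patterning of the mouse skeleton, had 724 and 1778 FPKM (1.29). Rpl30 had 152 and 324 FPKM (1.09), and its exons overlap 2 other annotated genes, D730044K07Rik and Gm24523. Removal of the trend over coding length left Rpl41 at 0.04 and Rpl38 at 0.60, and with the length of the principal transcript they stood at 0.75 and 0.48. The coding length trend rests on few genes at the length of Rpl41, since 225 of 10059 other genes had up to 300 coding nucleotides. Its value of 0.04 is thus uncertain.

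The remaining large-subunit genes at least 1.5-fold higher had log2 ratios from 0.62 to 0.88. Rpl35a, mutated in some cases of Diamond-Blackfan anaemia, had 104 and 193 FPKM (0.88), Rpl34 had 179 and 306 (0.77), and Rpl21 had 71.1 and 121 (0.76). Rpl27a had 224 and 373 FPKM (0.73) and Rpl36 a ratio of 0.73. Rpl13a, which also serves the interferon-induced silencing complex GAIT, stood at 0.70 (320.1 and 519 FPKM), Rpl23 at 0.63 (307 and 476 FPKM), Rpl22 at 0.63 and Rpl13 at 0.62 (486 and 747 FPKM). These genes lay between 71.1 and 1283 FPKM in the control, so the higher values were not limited to the most abundant members. Below 1.5-fold, Rpl15 (182 and 267 FPKM, 0.55), Rpl12 (473 and 690.0 FPKM, 0.54) and Rpl32 (1080.3 and 1559 FPKM, 0.53) were among the next. Rpl10, which joins the subunit late in its assembly, had 260.2 and 319 FPKM (0.29), and Rpl3, near the peptidyl transferase centre, had 326 and 398 (0.29). Rpl14 (0.21), Rpl6 (0.20), Rpl24 (0.17) and Rpl7a (0.13) were lower, and Rpl31 and Rpl5 were at 0.01 and 0.00.

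In the small subunit the genes of the mRNA path were higher by moderate amounts. Of the 3 proteins at the mRNA entry, which help unwind the message, Rps2 (171 and 249 FPKM, 0.54), Rps3 (268 and 349 FPKM, 0.38) and Rps9 (311 and 464 FPKM, 0.58) were higher and none reached 1.5-fold. Of 5 proteins at the exit, 5 were higher and 1, Rps14, at least 1.5-fold, with 576 and 876 FPKM (0.60). Among all 88 members these were 78 and 36, and over all genes 46% and 10.8%, so the counts at the exit do not set it apart from the other members. The exit group's lowest was Rpsa, also known as the laminin receptor, with 451 and 479 FPKM (0.09).

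In the decoding region Rps23, a protein of decoding accuracy, had 506 and 867 FPKM (0.78), and Rps15 a ratio of 0.18. The beak proteins Rps12 (335 and 541 FPKM, 0.69) and Rps10 (357 and 474 FPKM, 0.41) were higher. Rps6, the target of S6 kinase, had 771 and 922 FPKM (0.26). Rps20 had 94.7 and 223 FPKM (1.23) and Rps18 45.9 and 108 FPKM (1.22). Exons of both overlap those of another gene, Gm24016 and Vps52, and the annotated principal transcript of Rps20, of 3706 nucleotides, is far longer than its 357 coding nucleotides. Of the other small-subunit genes at least 1.5-fold higher, Rps21 had 321 and 583 FPKM (0.86) and Rps16 473 and 789.7 FPKM (0.74). Rps24 had 151 and 249 FPKM (0.72) and Rps15a 72.0 and 111 FPKM (0.62). Genes with smaller differences included Rps3a1 (616 and 869 FPKM, 0.49), Rps4x (979 and 1315 FPKM, 0.43) and Rps7 (570.4 and 766 FPKM, 0.42). Of 9 genes listed here as mutated in Diamond-Blackfan anaemia, an inherited failure of red cell production, 9 were higher and 3 at least 1.5-fold (Rpl35a, Rpl11 and Rps24). Among all 88 members these were 78 and 36, and 10.8% of all genes were at least 1.5-fold higher. The list's median of 0.41 was below the 0.53 of all members, so these counts do not set the list apart. Rps19, the most often mutated of them, had 121 and 143 FPKM (0.24).

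Large-subunit genes with ratios under 0 were Rplp0, Rpl29 (-0.17), Rpl28 (-0.08), Rpl4, Rpl9 (-0.03), Rpl27 (-0.02) and Rpl17. For each of these 7 genes the levels in both libraries were within 1.5-fold of each other.

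Overlap with other genes was common. Exons of 39 of the 88 genes overlapped those of another gene, among them small nucleolar RNA genes such as Snord33 in Rpl13a. Their median was 0.44, with 11 at least 1.5-fold higher, and that of the other 49 genes was 0.60, with 25 at least 1.5-fold higher.

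The paralogs had lower ratios than the genes they resemble in 3 of 4 pairs. Rpl36al, with 87.7% of coding bases identical to Rpl36a, had 191 FPKM (control) and 218 FPKM (antagomir; log2 ratio 0.19), against 1.36 for Rpl36a, and its share of the pair was 43.9% and 25.7%. Rps27l, with 76.2% identity to Rps27 and known as a target of p53, had 148 and 171 FPKM (0.20), against 0.96, and a share of 36.1% and 25.1%. Both paralogs have the coding length of their partner, 318 and 252 nucleotides. Rpl7l1, with 54.4% identity to Rpl7, had 75.4 and 77.1 FPKM (0.03), where Rpl7 had 362 and 462 (0.35). Rpl22l1 went the other way: it had 84.8 and 161 FPKM (0.92), where Rpl22 had 137 and 213 (0.63), and its share was 38.2% and 43.1%. The median over the 4 paralogs was 0.20, and after removal of a length trend it was below 0 with each of the lengths used (-0.03 to -0.24). The start windows of the Rps27 pair and of Rpl36al are given to show where these partners differ, with capitals as above.
Rps27, chr3:90213629-90213688, minus strand: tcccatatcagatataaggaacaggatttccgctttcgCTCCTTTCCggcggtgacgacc
Rps27l, chr9:66946046-66946105, plus strand: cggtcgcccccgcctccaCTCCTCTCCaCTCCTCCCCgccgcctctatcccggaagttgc
Rpl36al, chr12:69184048-69184107, minus strand: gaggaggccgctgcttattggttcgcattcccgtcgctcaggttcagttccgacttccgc
Rps27 has a longest run of 9 pyrimidines, which spans the RefSeq start. The window at the first annotated start of Rps27l also has a longest run of 9, but its runs lie wholly before that start. In Rpl36al the longest run is 5. In the window of Rpl36a printed above it is 6 and lies before the start, so these lengths do not compare the tracts of the mRNAs.

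**Figure D3:**
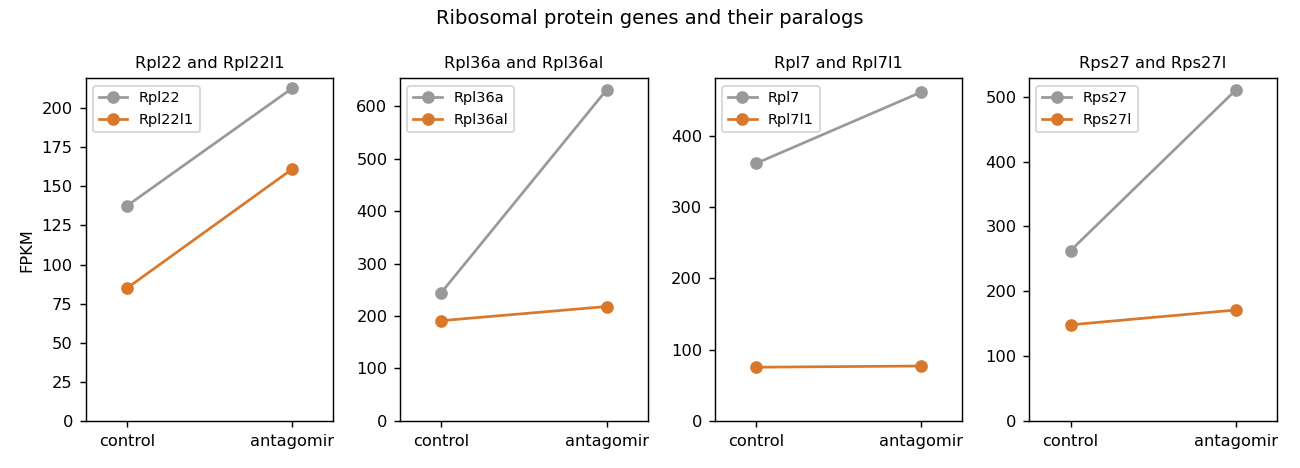
FPKM in the control and antagomir libraries for each paralog (orange) and the ribosomal protein gene it resembles (grey), 1 library each, with axes from 0. Rpl36a and Rps27 lie well above their values in the control while Rpl36al and Rps27l lie close to theirs.

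The 7 genes named as copies ranged from -0.59 to 1.99. Rpl36a-ps1, with 97.8% of coding bases identical to Rpl36a, had 20.6 FPKM (control) and 84.9 FPKM (antagomir; log2 ratio 1.99). Rps27rt, 100% identical to Rps27 in the coding sequence, had 8.88 and 5.55 FPKM (-0.59), while Rps27 itself was at 0.96. Rpl27-ps3 had 12.1 and 34.1 FPKM (1.42), while Rpl27 was at -0.02. In these last pairs the copy and its source had ratios on opposite sides of 0. Rpl10-ps3 (73.6 and 113 FPKM, 0.62) and Rps12-ps3 (85.2 and 125 FPKM, 0.55) also share 100% of their coding bases with Rpl10 (0.29) and Rps12 (0.69). Rpl9-ps6 had 9.86 and 7.68 FPKM (-0.32, Rpl9 -0.03) and Rpl7a-ps5 2.25 and 2.45 (0.09, Rpl7a 0.13). The ratio of a copy minus that of its source was thus between -0.29 and 0.33 in these 4 pairs, and -1.55, 0.63 and 1.45 for Rps27rt, Rpl36a-ps1 and Rpl27-ps3. Reads from such copies and their sources cannot be separated where the sequences are the same, so these values and the levels of their sources are uncertain.

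Among core genes the ratio was higher the shorter the coding sequence. Over 77 genes Spearman's rho with coding length was -0.56 and Pearson's r on log2 length -0.58, and with the length of the principal transcript rho was -0.34. Over 10059 other genes, read in the same libraries, rho was -0.28 with coding length and -0.30 with transcript length. Genes of one library pair are not independent replicates, and no test is given. The level in the control was less closely related to the ratio of the core genes (rho -0.21), as was GC content (-0.16).

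Set beside other genes of like coding length, ribosomal protein genes had the higher median in the shorter classes. Up to 300 coding nucleotides their median was 0.96 over 11 genes and that of other genes 0.52 over 225, of which 45.8% were at least 1.5-fold higher. From 300 to 400 nucleotides the medians were 0.71 over 20 genes and 0.40, and from 400 to 500 they were 0.54 over 22 and 0.24. From 500 to 600 they were 0.42 over 9 and 0.17, and from 600 to 900 they were 0.37 over 21 and 0.07. In order from the shortest class, 8, 13, 10, 1 and 3 ribosomal protein genes were at least 1.5-fold higher. Of other genes 45.8%, 34.5%, 24.6%, 20.1% and 14.5% were so. Above 500 coding nucleotides the share of ribosomal protein genes was thus not above that of other genes. With 900 to 1500 coding nucleotides both medians were -0.03, over 3 ribosomal protein genes (Rplp0, Rpl4 and Rpl3). By length of the principal transcript the distance was smaller. Up to 500 nucleotides the medians were 0.71 over 22 ribosomal protein genes and 0.77 over 101 others, from 500 to 750 they were 0.48 and 0.41, and from 750 to 1000 they were 0.48 and 0.31. Short transcripts outside the ribosomal proteins were thus also higher in the antagomir library. The part of transcript length in the ribosomal protein ratios was not tested, and the distance to other genes depended on which length was used.

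**Figure D4:**
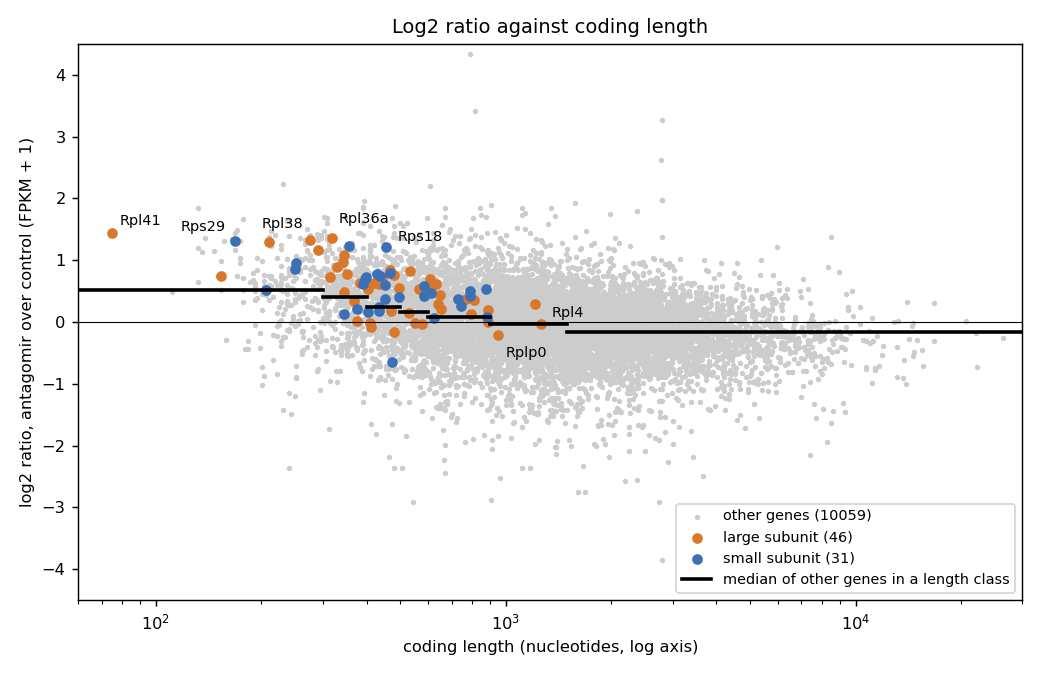
Log2 ratio against coding length (log axis) for the 46 large-subunit (orange) and 31 small-subunit (blue) core genes and 10059 other genes (grey), with the median of the other genes in each length class as black bars. The black bars step down from 0.52 in the shortest class to -0.17 in the longest. All 11 ribosomal protein genes of the shortest class have a median of 0.96, which includes the paralog Rps27l and the copy Rps27rt, not plotted here.

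Other genes of protein synthesis are given beside the cytosolic ribosomal proteins by their values. Fau, outside the name rule, had 774 FPKM (control) and 1406 FPKM (antagomir; log2 ratio 0.86). Of 78 genes of the mitochondrial ribosome, which translates the mitochondrial genome, 60 were higher, 14 of them 1.5-fold or more, and 3 were at least 1.5-fold lower, with a median of 0.23 (all genes: 46%, 10.8% and 13.4%). The highest was Mrpl52 (77.0 and 189 FPKM, 1.29) and the lowest Mrps18b (29.8 and 13.0 FPKM, -1.14). Removal of the length trend brought that median to 0.03, 0.09 and 0.10 for longest transcript, principal transcript and coding length, where the cytosolic ribosomal protein genes had 0.17, 0.07 and 0.24. With the length of the principal transcript the cytosolic genes were thus not above the mitochondrial ones.

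Genes whose mRNAs also carry a 5′ TOP, a list of elongation and other factors with 19 of 20 genes in the table, had a median of 0.09. Of these, 11 of 19 were higher and 2 were at least 1.5-fold higher (Fau and Tpt1, the latter with 833 and 1305 FPKM), a share near the 10.8% of all genes. None was at least 1.5-fold lower. The elongation factor Eef1a1 had 2057 and 2056 FPKM (0.00), Eef2 had 1361 and 1204 (-0.18), Eef1b2 had 242 and 280.3 (0.21), and Eef1d had 40.3 and 57.0 (0.49). The elongation factor genes thus had ratios on both sides of 0. The poly(A)-binding protein gene Pabpc1 had 386 and 309 FPKM (-0.32).

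Ribosome biogenesis factors, which process ribosomal RNA and assemble the subunits, had a median of -0.14 over 71 of 72 genes, with 30 higher, 1 of them 1.5-fold or more (Polr1d, a subunit of RNA polymerases I and III, 0.95) and 7 at least 1.5-fold lower. These shares were near or below those of all genes (46% higher, 10.8% and 13.4% at least 1.5-fold higher and lower). Polr1a, the largest subunit of RNA polymerase I, stood at -0.95, Utp4 at -0.94 (24.9 and 12.5 FPKM) and Nop14 at -0.87 (66.1 and 35.8 FPKM). Regulators of TOP mRNA translation and of ribosomal gene expression, 19 genes, had a median of -0.24, with 5 higher, none of them by 1.5-fold, and 2 at least 1.5-fold lower, a share not above the 13.4% of all genes. The latter were Myc, a transcription factor that drives ribosome production, with 77.0 and 30.4 FPKM (-1.31), and Larp1, which binds the 5′ TOP, with 47.4 and 30.9 FPKM (-0.60). The lists hold genes of different length from the ribosomal proteins (median coding length of 1584 nucleotides for the biogenesis list and 453 for the 88 genes), and no test of the difference between lists is possible with 1 library per group.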

How the data were processed

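Values were FPKM per gene, as deposited. Per the submitters' processing notes the authors used cutadapt, HISAT2 and StringTie 1.3.3 on GRCm38. Annotation, trimming settings and strand use: not given in the sources used here. Since FPKM is relative to the library total, more of some abundant genes lowers all others. Per the labels' protocols RNA was selected for poly(A) and libraries were made with a stranded kit.

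FPKM of 10 symbols on several lines were summed, which left 10982 genes, of which 10201 reached 1 FPKM in the higher library. A pseudocount of 1 FPKM was used. With 1 library per group no test was made. Counts used limits of 1.5-fold and 2-fold. Lengths, overlaps and named copies came from GENCODE M21 (10987 identifiers matched), and start windows from RefSeq (62 genes matched, 57 of them core genes). Identity of coding sequences is the percent of aligned columns of the annotated principal transcripts' reading frames. Length trends were polynomials of degree 3 in the logarithm of length and 2 in GC content. They were fitted to genes outside the ribosomal protein genes that reached 1 FPKM. Computation used Python 3.11.15, pandas 2.3.3, numpy 2.4.6, scipy 1.17.1 and matplotlib 3.10.9, and the scripts were tested on simulated data.

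Named with values were genes at least 1.5-fold apart, the ends of the ratio and of the control level, the P stalk, the 5S partners, Rps6, Rps27a, Rpl41, paralogs with their partners, and up to 3 genes at either end of each other list that reached 5 FPKM. Rpsa, Rps2, Rps3, Rps9, Rps10, Rps19, Rps26, Eef1a1, Eef1b2, the marker genes and other ribosomal protein genes under 1.5-fold were named outside that rule, as members of a described group. Members and lists were chosen with earlier results of these data known. Values of some genes are not reported here and are left out of the plot of levels.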

Additional observations from a re-analysis of the deposited data

How the results depend on the processing

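Of 13 medians, counts and ratios, recomputed under 10 other settings and 2 more chosen after seeing the data (leaving out named copies, and the trend over coding length), a median was said to move when it changed by over 0.1 on the log2 scale and a count by over 1.5 times. Pseudocounts of 0.1 and 0.01, no minimum or one of 5 FPKM, TPM and rescaling without abundant genes moved none. The 2 genes at least 1.5-fold lower became 1 after centring on the median of all genes, without members that overlap other genes, and without named copies, since the other gene was then left out or under the limit.

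Removal of a length and GC trend moved most values, in the order of longest transcript, principal transcript and coding length. The median, 0.53 over 88 genes, became 0.17, 0.068 and 0.24. The count at least 1.5-fold higher, 36, became 15, 10 and 11, and that at least 2-fold higher, 11, became 3, 2 and 2. The count at least 1.5-fold lower, 2, became 5 with the longest and 6 with the principal transcript. The median of all genes, -0.048, became -0.071, -0.070 and -0.050, and the shares of all genes at these limits after removal are not given here. The large-subunit median became 0.17, 0.085 and 0.24 and the small-subunit median 0.19, 0.081 and 0.28. The paralog median, 0.20, reversed to -0.035, -0.24 and -0.13. The mitochondrial ribosomal median, 0.23, became 0.032, 0.086 and 0.10, and the TOP list, 0.09, became -0.058 with the principal transcript. The cause was not tested. The large minus small difference kept within 0.1 of its value but was below 0 with the longest transcript (-0.02) and coding length (-0.04).

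The ratio of summed FPKM was not run with other pseudocounts or with trends removed, since neither applies to a sum. No paired analysis was possible because each group had 1 library, and there was no replicate to leave out. The read depth is unknown. The copies Rpl27-ps3 and Rpl7a-ps5 had no principal transcript or coding length and were left out of those trends, which leaves 86. The trend over the longest transcript kept all 88 members.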
